A study of Mus musculus with 51 samples.

Results

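Skeletal muscle RNA was followed through 10 genes, Acta1, Ckm, Myh4, Myh1, Tnnt3, Tnnc2, Mylpf, Atp2a1, Actn3 and Mb, which were picked by symbol from the 40077 genes of the deposited tables. All 10 were found. They were read in 35 tumor libraries grown under the skin of both flanks, with 16 libraries of cultured Myc-CaP cells as the background. Myc-CaP is a mouse prostate cancer line, grown in male FVB mice, and B16-BL6 is a mouse melanoma line, grown in female C57BL/6 mice. The mice were 6 to 8 weeks old, and tumors may share a mouse.

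The B16-BL6 tumors comprised 3 labelled sgNC, which carried a control guide, and 4 labelled sgUba1, which carried a guide against Uba1, the enzyme that activates ubiquitin. The Myc-CaP tumors comprised 3 labelled sgNC and 7 labelled sgUba1, 3 with an empty lentiviral vector (EV) and 4 with the vector carrying Uba1 (Uba1 OE), and 6 from mice given vehicle and 5 from mice given TAK-243, an inhibitor of the UBA1 enzyme, at 25 mg/kg 2 times a week. Guide-bearing lines were derived from single clones, so that tumors of a line share a clone. The cultured libraries were 8 groups of 2: control Myc-CaP cells and cells given 50 nM TAK-243, IFN-γ or both, and cells with a control guide (NC) or sgUba1, each with and without IFN-γ. No library of cultured B16-BL6 cells was analysed here, so the background of the melanoma tumors came from the other line.

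Skeletal muscle fibres contract when myosin heads pull on actin filaments. The members encode parts that fast fibres use, not all of them confined to such fibres. Among them are actin (Acta1), heavy chains (Myh4 in type IIb fibres, Myh1 in type IIx), a light chain (Mylpf) and troponins that bind calcium or tropomyosin (Tnnc2, Tnnt3). Others are the Z-disc crosslinker Actn3, the calcium pump Atp2a1 and the energy buffer Ckm. Mb, myoglobin, stores oxygen and is most abundant in oxidative fibres and heart. Beneath the skin of the mouse flank lie the panniculus carnosus, a thin sheet of fast fibres, and the muscles of the body wall.

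Total counts ran from 8651963 to 35693092 in the tumors and from 12860844 to 38032284 in the cells. A count of 3, taken as the floor of detection, was worth 0.0798 to 0.322 CPM (counts scaled to the library total with TMM factors over all 51 libraries) in a tumor, and this floor covers counting error only. Uba1 was 189 to 223 CPM in the B16-BL6 tumors labelled sgUba1 against 379 to 427 in sgNC, and 601 to 716 CPM in Uba1 OE against 264 to 293 in EV. Of the 7 Myc-CaP tumors labelled sgUba1, replicates 1 to 3 had 180 to 190 CPM, below the 296 to 311 CPM of sgNC, whereas replicates 4 to 7 had 339 to 354 CPM, above every sgNC tumor. Comparisons with these 4 libraries go by their label and are given with and without them.

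The members lie on 6 chromosomes. Myh1 (chr11:67200052-67224575, plus strand) and Myh4 (chr11:67238029-67260446, plus strand) are neighbours, and Acta1 lies at chr8:123891769-123894751 on the minus strand and Ckm at chr7:19404776-19422841 on the plus strand (GRCm38, GENCODE M21). The identifiers of all 10, version included, were the same in GENCODE M21 and in the deposited tables. The 250 bases before the RefSeq start (GRCm38.p6) are printed, 5′ to 3′, for Acta1, by which tumors are told apart here, for Ckm, and for the neighbouring myosins, whose proportions differed widely between tumors: chr8:123894776-123895025 (minus strand), chr11:67237562-67237811, chr7:19410844-19411093 and chr11:67199852-67200101 (plus strand). Capitals mark the E-box CANNTG, the site of myogenic helix-loop-helix factors, and the CArG box, the site of serum response factor.
Acta1: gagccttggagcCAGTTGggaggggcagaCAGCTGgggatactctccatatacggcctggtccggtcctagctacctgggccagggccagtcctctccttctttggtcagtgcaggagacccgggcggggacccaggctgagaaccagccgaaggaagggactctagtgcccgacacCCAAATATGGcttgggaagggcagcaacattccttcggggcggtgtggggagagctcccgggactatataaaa
Myh4: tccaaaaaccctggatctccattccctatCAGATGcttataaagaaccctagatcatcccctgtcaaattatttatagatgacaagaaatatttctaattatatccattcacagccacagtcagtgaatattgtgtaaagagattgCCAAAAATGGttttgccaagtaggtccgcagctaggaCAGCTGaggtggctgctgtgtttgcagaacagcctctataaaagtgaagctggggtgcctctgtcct
Ckm: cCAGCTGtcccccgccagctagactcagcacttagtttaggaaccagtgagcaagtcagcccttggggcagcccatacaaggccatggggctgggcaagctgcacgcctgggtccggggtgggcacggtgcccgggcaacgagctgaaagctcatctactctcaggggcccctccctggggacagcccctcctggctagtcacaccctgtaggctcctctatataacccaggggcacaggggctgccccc
Myh1: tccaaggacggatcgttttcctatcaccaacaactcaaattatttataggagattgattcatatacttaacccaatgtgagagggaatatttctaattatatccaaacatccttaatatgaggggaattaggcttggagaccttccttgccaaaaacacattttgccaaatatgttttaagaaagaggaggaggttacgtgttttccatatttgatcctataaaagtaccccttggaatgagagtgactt
At least 1 E-box stood in 6 of the 7 member promoters searched and in 66.2% of the 32851 promoters of the table. A CArG box stood in 2 of the 7, those of Acta1 and Myh4, and in 1.47% of all promoters, and the MEF2-type site, CTA and TAG with 4 bases between them, stood in 0 of the 7 and in 3.2% of all. Each pattern reads the same on both strands, and no marked sites overlap. A match describes letters only. Promoters of Actn3 and Tnnt3 were not in the table, and that of Mb, with 3 entries, was not searched.

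Muscle RNA was concentrated in single tumors. Acta1 exceeded 5 times the highest cultured library (1.02 CPM) in 9 of the 35 tumors, a limit chosen after the values were seen. The lowest of these 9 had 8.21 CPM and the highest of the other 26 had 1.02 CPM, so that a gap separated them. The 9 were Uba1 OE replicates 1 and 2, vehicle replicates 3 and 6, TAK-243 replicate 1, Myc-CaP sgUba1 replicate 1, B16-BL6 sgNC replicate 4 and B16-BL6 sgUba1 replicates 2 and 4. They came from 6 of the 8 tumor groups, treated and control alike, and from both lines. The 3 EV and the 3 Myc-CaP sgNC tumors held none.

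All 10 members stood above every cultured library in 5 tumors: Uba1 OE 1 and 2, vehicle 6, Myc-CaP sgUba1 1 and B16-BL6 sgUba1 2. In 3 more (B16-BL6 sgNC 4, B16-BL6 sgUba1 4 and vehicle 3) 9 members did so, and in TAK-243 1 there were 6. The remaining 26 tumors had 0 to 5. Summed over the members, TPM (a length-scaled share of the library) made up 0.0493% of all TPM in Uba1 OE 1, 0.0426% in vehicle 6 and 0.0308% in B16-BL6 sgUba1 4. The other 6 of the 9 lay between 0.0047% and 0.0165%, the 26 tumors between 0.00107% and 0.00316%, and the cultured cells between 0.000665% and 0.00186%. Even the richest tumor thus carried muscle RNA as a small share of its total. In bulk tissue, a larger piece of muscle and more RNA per fibre cannot be told apart.

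**Figure D1:**
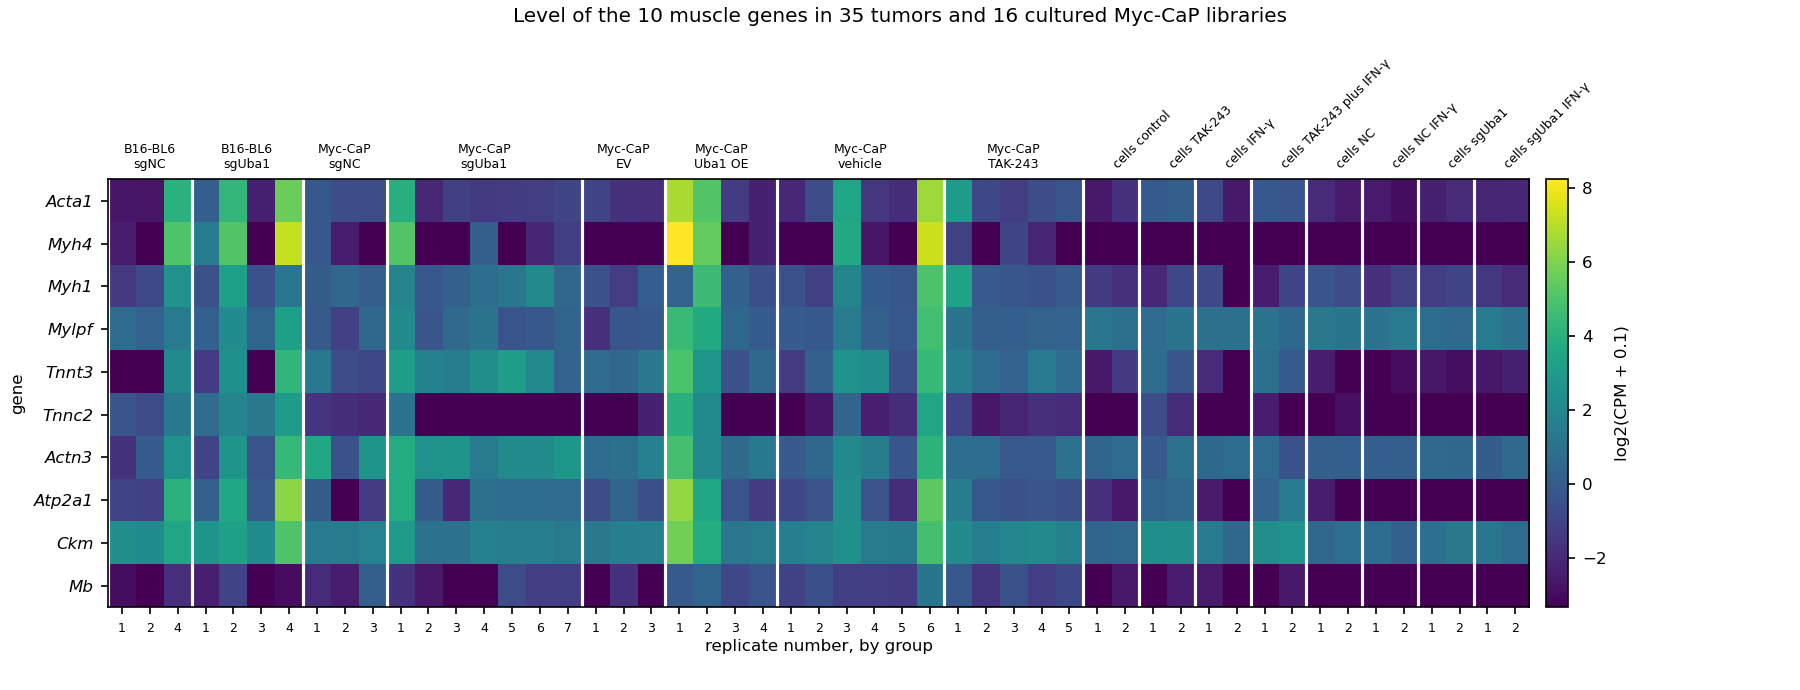
Level of each member (rows, log2 of CPM + 0.1, colour) in every tumor and cultured library (columns, by group and replicate number). The bright columns are single tumors, such as Uba1 OE 1 with 302 CPM of Myh4, beside replicates of the same group near the level of cultured cells.

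Acta1, the actin of the skeletal thin filament, was the marker by which the 9 tumors were chosen. Its 4 Uba1 OE tumors had 108, 35.8, 0.311 and 0.103 CPM, against 0.413, 0.215 and 0.2 in EV. The 2 high OE tumors stood above every EV tumor and the other 2 lay among or below them. In B16-BL6 it was 0.0616, 0.0543 and 16.4 CPM in sgNC replicates 1, 2 and 4 and 1.02, 20.0, 0.104 and 49.1 CPM in sgUba1 replicates 1 to 4, and the groups overlapped. Among vehicle tumors the lowest was 0.142, the median 0.402 and the highest 93.0 CPM, and the 5 TAK-243 tumors had 8.21, 0.477, 0.328, 0.561 and 0.702 CPM. Myc-CaP sgUba1 1 had 15.1 CPM while the other 6 tumors of that label lay between 0.146 and 0.433, under the 0.519 to 0.794 CPM of sgNC. The 9 tumors held 97.4% of the Acta1 CPM summed over all 35, a share that follows from their choice by Acta1.

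Myh4, the heavy chain of the fastest fibres, was at 0 counts in all 16 cultured libraries and in 15 tumors. It reached 302 CPM in Uba1 OE 1, 162 in vehicle 6 and 150 in B16-BL6 sgUba1 4, and lay between 12.8 and 44.5 CPM in 5 further tumors of the 9. The ninth, TAK-243 1, had 0.373 CPM from 14 counts. That tumor carried Acta1 with almost none of the type IIb myosin. Outside the 9, the highest was B16-BL6 sgUba1 1 with 2.92 CPM from 92 counts. Since no cultured library held a read, no fold against the cells is given.

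Myh1, the type IIx heavy chain, followed another order. Vehicle 6 (30.8 CPM) and Uba1 OE 2 (24.2) led, followed by TAK-243 1 (9.99) and B16-BL6 sgUba1 2 (9.22). Uba1 OE 1, the highest of all tumors in Myh4, had 1.14 CPM of Myh1 from 12 counts, a little above the 0.322 to 0.999 CPM of EV. Compared per length, in TPM, Uba1 OE 1 had 75.1 of Myh4 and 1.87 of Myh1, vehicle 6 had 45.2 and 12.8, and Uba1 OE 2 had 11.8 and 11.2, nearly equal. The counts of Uba1 OE 2 were 479 and 260, so the near equality rests on the shorter length by which TPM scaled Myh1. TAK-243 1 had 0.111 TPM of Myh4 and 8.39 TPM of Myh1, the only 1 of the 9 with more Myh1. Of Myh4, Myh1 and 5 other sarcomeric myosins summed in TPM, Myh4 made up 97.5% in Uba1 OE 1, 89.9% in B16-BL6 sgUba1 4, 50.4% to 77.3% in 6 more and 1.19% in TAK-243 1. These shares carry an uncertainty of assignment, since 42.9% of the 31-base words of Myh1 transcripts and 30.4% of those of Myh4 also occur in other genes, mainly other myosins, so that reads may be split between them. They also include a background of Myh1, which was not subtracted. The 26 tumors low in Acta1 held 1.05 to 4.74 TPM of it. Myh2, the type IIa chain, reached 84 counts (0.652 TPM) in TAK-243 1 and 80 counts (0.656 TPM) in B16-BL6 sgUba1 2, and was at 0 in every cultured library.

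**Figure D2:**
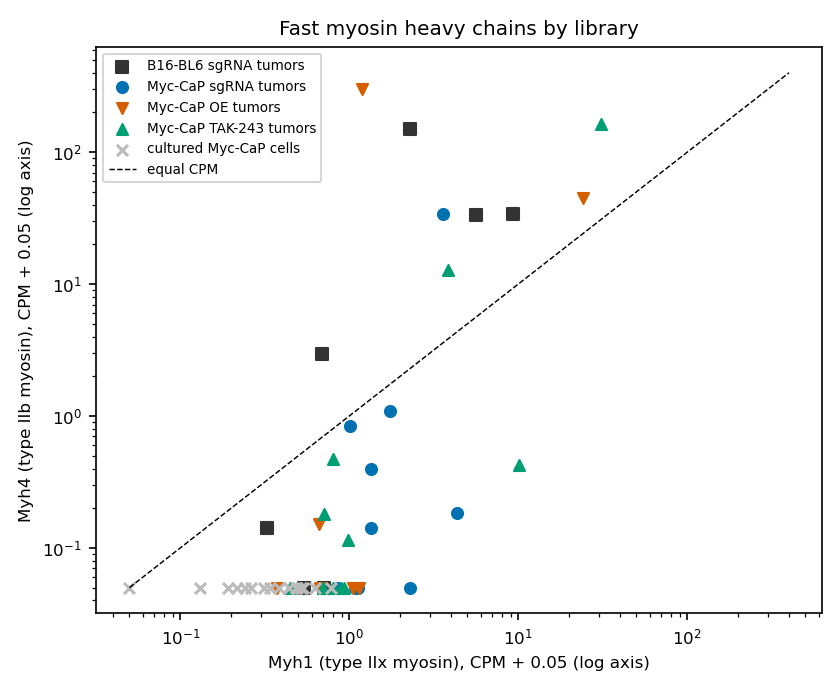
Myh4 against Myh1 in each library, in CPM + 0.05 on log axes, with a dashed line at equal CPM, which is not scaled for length. Uba1 OE 1 (302 against 1.14 CPM) and TAK-243 1 (0.373 against 9.99 CPM) lie on opposite sides of the line, and all cultured libraries sit at 0 for Myh4.

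Mylpf, the fast regulatory light chain, had a higher floor. Cultured cells held 1.39 to 2.59 CPM, and 7 tumors exceeded this, all among the 9, led by vehicle 6 (26.9 CPM) and Uba1 OE 1 (22.3 CPM). Tnnc2, the fast troponin C, peaked at 16.2 CPM in Uba1 OE 1 and 11.4 in vehicle 6, and was at 0 in 12 of 16 cultured libraries. Its level outside the 9 tumors was 0.515 to 2.35 CPM in B16-BL6 and 0 to 0.238 in Myc-CaP. Line, mouse strain, sex and experiment cannot be told apart here. Of the 31-base words in Tnnc2 transcripts, 59% also occur in Ube2c, a ubiquitin-conjugating enzyme of dividing cells that overlaps it, so that counts of Tnnc2 below a few CPM are uncertain.

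Tnnt3, the fast troponin T that ties the complex to tropomyosin, and Actn3 were also high in some tumors outside the 9. Tnnt3 was highest in Uba1 OE 1 (30.99 CPM), vehicle 6 (21.5) and B16-BL6 sgUba1 4 (19.7), but Myc-CaP sgUba1 5 reached 8.69 CPM with 0.31 CPM of Acta1. Actn3 was 28.5 CPM in Uba1 OE 1 and 21.0 in B16-BL6 sgUba1 4, and 11.9 CPM in Myc-CaP sgNC 1, where Acta1 was 0.794. Of the CPM summed over all 35 tumors, the 9 held 99.2% for Myh4, 92.9% for Atp2a1, 88% for Tnnc2, 77.5% for Myh1, 76.8% for Mylpf, 68% for Tnnt3, 66.6% for Ckm, 58.4% for Actn3 and 45.7% for Mb.

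Atp2a1, which returns calcium to the sarcoplasmic reticulum, behaved like Acta1. It was 81.0 CPM in Uba1 OE 1, 74.5 in B16-BL6 sgUba1 4 and 40.4 in vehicle 6, at least 2.77 in the other 6 of the 9, and at most 1.85 elsewhere. Ckm, the cytosolic creatine kinase of muscle, was 54.6, 14.2, 2.33 and 2.56 CPM in the Uba1 OE tumors and 2.38, 3.11 and 3.2 CPM in EV, so that the groups overlapped. It reached 33.0 CPM in B16-BL6 sgUba1 4 and 28.4 in vehicle 6, over a floor of 1.9 to 6.23 CPM in the 26 tumors and 1.1 to 6.0 in the cells. Mb stayed low throughout. Its highest value was 2.14 CPM, 66 counts, in vehicle 6, and B16-BL6 sgUba1 4, 3 in the order of muscle level, held 1 count.

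The measured levels of the members did not stand in fixed proportions. On the TPM scale, which allows genes to be compared, Ckm stood at 0.22 to 0.536 of Acta1 over the 9 tumors and Mylpf at 0.386 to 0.916, a spread of 2.44 and 2.37 times. Tnnt3, Tnnc2 and Atp2a1 spread by 3.58 to 4.63 times and Actn3 by 7.6 times. Myh1 spread by 49.2 times, Mb by 64.0 and Myh4 by 66.8, the last through TAK-243 1, which had 0.00932 of Acta1 where the other 8 had 0.229 or more. The lowest ratio of Mb rested on 1 count, in B16-BL6 sgUba1 4. No background was subtracted, although tumors low in Acta1 held up to 7.02 TPM of Actn3 and cultured cells 4.04 to 9.13 TPM of Mylpf. Whether fibre content differed was not tested.

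Comparing count with TPM gives an estimate of the transcript length that the authors' values rested on, and it is given for 3 members. It also varied between tumors for Acta1, Atp2a1, Mylpf, Tnnt3 and Mb, and was level for Actn3 and Tnnc2. For Ckm it was 2720 to 2730 bases in every cultured library and 1610 to 2370 bases in 7 of the 9 tumors. The annotated transcripts of Ckm are 671 to 2742 bases long. In vehicle 3 and TAK-243 1, where Ckm was 5.51 and 4.64 CPM, the length was that of the cells. For Myh1 it was 400 to 440 bases in the 15 cultured libraries with reads, against 4240 in vehicle 6, 3570 in Uba1 OE 2 and 860 in B16-BL6 sgUba1 4, the last the shortest of the 9. Annotated Myh1 transcripts run from 631 to 6081 bases, and the effective length of a short one is below its annotated length. Myc-CaP sgUba1 4 and 6, with Acta1 near 0.3 CPM, also had Myh1 lengths of 1890 and 2000 bases, from 23 and 64 counts. For Myh4, the length stayed between 6140 and 6310 bases wherever it was counted. Annotated Myh4 transcripts are 5912 to 6016 bases long, so the implied length is not exact.

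**Figure D3:**
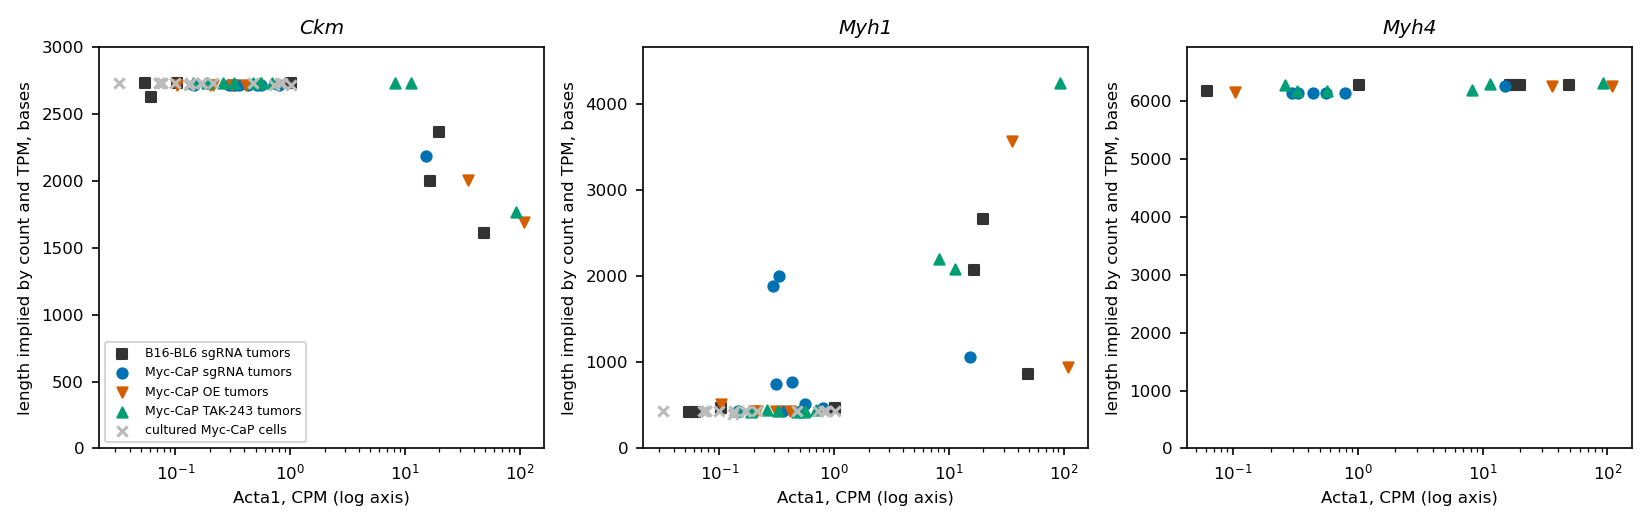
Transcript length implied by count and TPM for Ckm, Myh1 and Myh4 against Acta1 (CPM, log axis), 1 point per library with reads. Toward high Acta1 the length is shorter for Ckm, down to 1610 bases, and level for Myh4. For Myh1 it is 860 to 4240 bases in the 9 tumors high in Acta1 (median 2090) and 420 to 2000 in the other 26 (median 440). Within the 9 it does not follow Acta1, with 4240 bases in vehicle 6 but 950 in Uba1 OE 1, the tumor highest in Acta1.

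The members moved together from tumor to tumor. With the mean of each experiment removed, Pearson's r with Acta1 over 35 tumors (log2 CPM) was 0.948 for Myh4, 0.902 for Atp2a1, 0.9 for Ckm, 0.894 for Tnnc2 and 0.864 for Mylpf. It was 0.821 for Tnnt3, 0.794 for Actn3, 0.785 for Myh1 and 0.515 for Mb. Spearman's rho was 0.51 for Mb and between 0.721 and 0.883 for the others. Without Uba1 OE 1 and vehicle 6, the tumors farthest from the Acta1 median, r lay between 0.708 and 0.925, except for Mb at 0.399. Among 19330 other genes, Myh4 ranked 6 in likeness to Acta1, Atp2a1 19, Ckm 20 and Mb 100. These values are descriptions, since the points share library depth and composition. Depth itself had r = 0.116 with the mean log2 CPM of the 10 members, termed muscle level.

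Within the Myc-CaP sgRNA experiment, where a single tumor was high, r with Acta1 was 0.875 for Ckm and Myh4 and 0.941 for Tnnc2, but the ranks agreed less, with rho of 0.321, 0.419 and 0.752. There r and rho were 0.258 and -0.285 for Tnnt3, 0.411 and 0.552 for Actn3, 0.454 and 0.0182 for Myh1, 0.555 and -0.0909 for Atp2a1, 0.674 and 0.224 for Mylpf, and 0.129 and 0.273 for Mb. In the 7 B16-BL6 tumors r was between 0.847 and 0.996 for all but Mb (0.649), and rho was between 0.75 and 0.964 for all but Mb (0.541). Ranks also agreed less in the 7 OE tumors, where 2 were high. There r and rho were 0.963 and 0.429 for Ckm, 0.983 and 0.512 for Myh4 and 0.926 and 0.5 for Mylpf. In OE, rho was below r for every member compared with Acta1 but Myh1 (0.634 and 0.714).

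**Figure D4:**
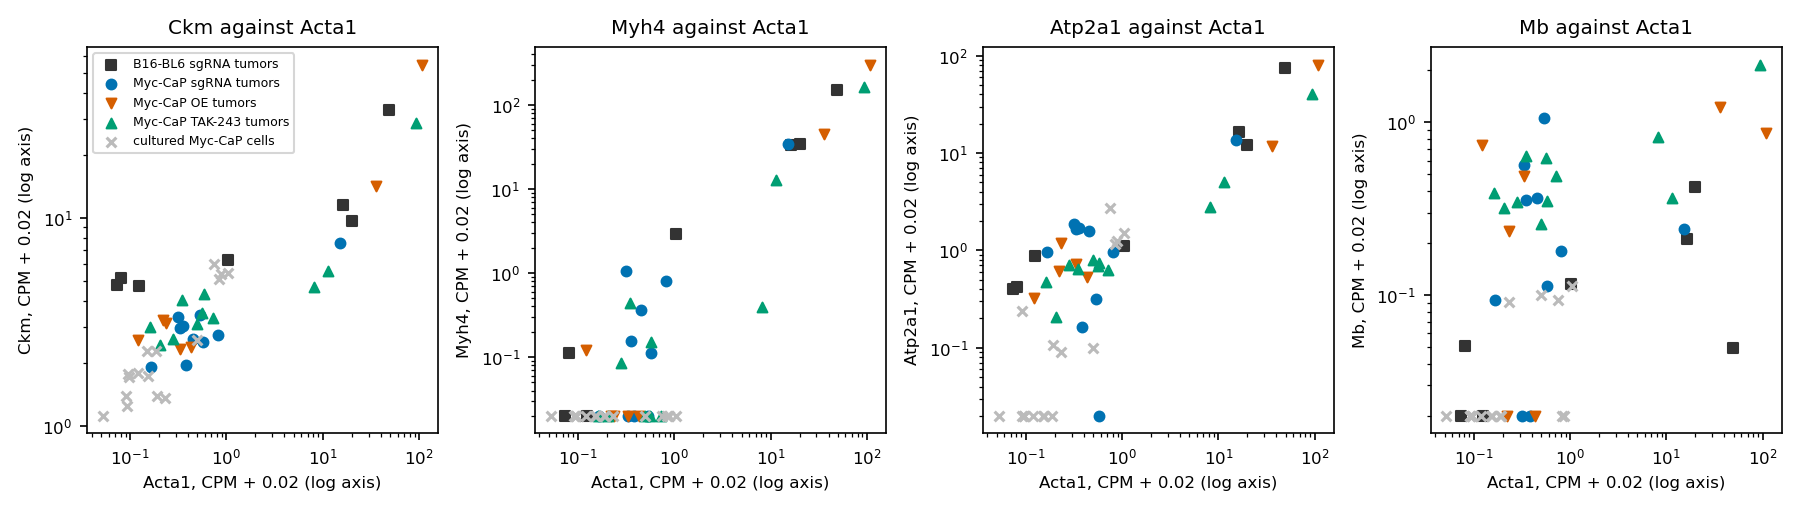
Ckm, Myh4, Atp2a1 and Mb against Acta1 in every library (CPM + 0.02, log axes), coloured by experiment. Ckm, Myh4 and Atp2a1 climb together above about 8 CPM of Acta1, apart from TAK-243 1 in Myh4, while Mb scatters (r = 0.515).

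Ranking 19321 other genes by r with the muscle level brought out further genes of striated muscle. The closest 12 were Eef1a2 (r = 0.979), Myot (0.977), Myl1 (0.975), Mypn (0.967), Myo18b (0.965), Myom2 (0.957), Xirp2 (0.957), Hjv (0.951), Trdn (0.947), Mybph (0.942), Pvalb (0.94) and Ryr1 (0.929). Eef1a2 is the elongation factor of mature muscle and neurons, Myot and Myom2 belong to the Z-disc and M-band, Trdn and Ryr1 to the calcium release unit, and Pvalb is the calcium buffer of fast fibres. Myl1, the essential light chain, reached 59.6 TPM and was at 0 in all cultured libraries, and Pvalb reached 30.2 TPM and was likewise at 0. Of the closest 50 genes, 26 were on 1 of the skeletal muscle lists, which held 0.362% of the genes ranked. Those lists were chosen with earlier results of these data known.

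Other muscle genes were followed by list. The 10 further fast fibre genes, as a mean log2 CPM, had r = 0.967 with the muscle level, the 14 sarcomere and Z-disc genes 0.968 and the 17 excitation and calcium genes 0.95. The 10 slow fibre genes had 0.223 and the 8 cardiac genes -0.12. Myh7, the slow and cardiac heavy chain, had at most 1 count in any of the 9 tumors, and Myf6 (1.6 TPM at most) was the only 1 of the top 4 developing muscle genes with r above 0.6. Not every fast fibre gene marked muscle. Tnni2, the fast troponin I, was 37.4 to 72.5 TPM in the cultured cells and had r = 0.557, Tpm2 had 0.35 and Tmod4 0.158. In the same way Ttn (up to 23.8 TPM) had r = 0.85 but Mybpc1 and Actn2 0.295 and 0.554. Among the abundant genes of the excitation list, Chrnb1, Stac3, Chrna1 and Jph2 all had r under 0.25, and Tpm3, Tnnc1, Myl2 and Tnni1 of the slow list under 0.3.

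The 14 muscle metabolism genes had r = 0.819, although the abundant Eno3, Pfkm, Ak1 and Cox7a1 had -0.0744, -0.0431, 0.242 and 0.0857. The 13 myogenic and developing genes had 0.836 and the 11 muscle ubiquitin ligase genes 0.886. Of the ligase list's abundant members, Fbxo30, Trim54, Trim63 (the atrophy ligase MuRF1) and Asb2 had 0.17, 0.395, 0.512 and 0.339. Pax3, at up to 105 TPM, and Myl4 and Cdh15 had 0.139, 0.557 and -0.0389. Pax3 is also a gene of the melanocyte lineage.

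Lists for neighbouring tissues had low correlations with the members. The smooth muscle and pericyte list had r = 0.0268 with the muscle level, the adipocyte list -0.106, the tendon and fibroblast list 0.206, the nerve list -0.157 and the keratinocyte list 0.102. Their abundant genes Smtn, Tagln, Acta2 and Rgs5, Fabp4, Cfd, Car3 and Retn, Col1a1, Col3a1, Thbs4 and Pdgfra, and Mbp, S100b, Pmp22 and Ncmap had r between -0.331 and 0.443. The same held for Tnnt2, Nppb, Myl7 and Tnni3 of the cardiac list, between -0.345 and 0.139. A single tumor, TAK-243 1, carried epidermal genes. It had 36.0 TPM of Krt14, 13.6 of Krt5, 11.6 of Krt1 and 38.5 of Flg, whereas Krt14 was at most 0.632 TPM and Flg 0.0908 in the 26 tumors without high Acta1. The list also held genes of the Myc-CaP line, since Krt15 was 131 to 934 TPM and Krt14 up to 7.02 TPM in the cultured cells, while Trp63 was at most 3.24 TPM in any tumor. Adipocyte and fibroblast summed levels in the 9 tumors, 30.3 to 140.0 and 102 to 462 TPM, lay within those of the other 26, 20.8 to 369 and 84.3 to 799 TPM.

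In the comparison of B16-BL6 sgUba1 with sgNC, which asks what loss of Uba1 changes in the melanoma, none of the members passed the test. Of 9 tested in edgeR (quasi-likelihood, p adjusted after Benjamini and Hochberg), 0 were called, 1 had an unadjusted p under 0.05 and limma-voom called 0, where 0.724% of all 17539 genes tested were called. DESeq2 also called 0 members, and 3.03% of all genes. The log2 fold change of Acta1 was 1.72 ± 1.58 (SE, edgeR adjusted p = 0.615), that of Ckm 0.95 ± 0.63 (adjusted p = 0.479) and that of Myh4 2.11 ± 1.71 (adjusted p = 0.565). Mb was too low to be tested. All 9 estimates were positive, with a median of 1.72 against 0.01 for all genes. The median was 0.38 without sgUba1 replicate 4 and 3.65 without sgNC replicate 4, and with the 3 tumors high in Acta1 left out it was 0.48, with 1 of 6 members called beside 4.27% of all genes. That gene was Tnnc2 (log2 fold change 1.74 ± 0.33, edgeR adjusted p = 0.0234), the member that shares sequence with Ube2c. Here and below, tumors left out for high Acta1 were chosen by a member. The shift of the members' median is in part fixed by that choice.

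In the Myc-CaP model labelled sgUba1 against sgNC, 7 members were tested and 0 called by edgeR, 1 with an unadjusted p under 0.05, and 3.04% of all 16202 genes were called. DESeq2 called 1 member, Tnnt3, where it called 11.5% of all genes with an adjusted p, and limma-voom called 0. Ckm differed by 0.21 ± 0.41 log2 (edgeR adjusted p = 0.79) and Myh4 by 4.07 ± 2.53 (adjusted p = 0.358), the latter carried by a single tumor of 34.1 CPM, and its sign turned under DESeq2 (-0.25). Acta1, Tnnc2 and Mb did not pass the filter on low counts. The median of the 7 was 0.97. It was 0.60 over the 6 tested without sgUba1 replicate 1, and 1.05 over the 6 tested without the 4 tumors whose Uba1 was above every sgNC tumor.

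In Uba1 OE against EV, 6 members passed the filter, 0 were called by edgeR and 3 had an unadjusted p under 0.05, with 0.0269% of 14853 genes called. DESeq2 called 1 of the 5 members to which it gave an adjusted p, Mylpf, where it called 5.17% of all genes with an adjusted p, and limma-voom called 0. Mylpf had at most 8 counts in EV and passed the filter only through OE tumors. For Mylpf a higher level in OE was thus built into the filter, and its call is not read as a result. Acta1, Myh4, Tnnc2 and Mb did not pass, since fewer than 3 libraries held enough counts, although Acta1 and Myh4 were the highest of the series in OE 1. Ckm differed by 2.65 ± 1.11 log2 (edgeR adjusted p = 0.258). The median over the 6, Mylpf included, was 2.99. It was 0.91 over the 4 tested without OE replicate 1, and -0.23 over the 4 tested without OE replicates 1 and 2.

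In TAK-243 against vehicle, the 8 members tested all had negative estimates, with a median log2 fold change of -1.63. None of the 8 was called by edgeR or limma-voom and none of the 5 with an adjusted p by DESeq2, 2 had an unadjusted p under 0.05, and 0.145% of 17299 genes were called by edgeR and 3.43% by DESeq2. Acta1 differed by -3.05 ± 1.60 (edgeR adjusted p = 0.392), Ckm by -0.97 ± 0.62 (adjusted p = 0.479) and Mb by -0.44 ± 0.55 (adjusted p = 0.733). Myh4 and Tnnc2 did not pass the filter. The direction rested on vehicle replicate 6: without it the median was -0.14, with 4 members higher and 4 lower. With vehicle 3, vehicle 6 and TAK-243 1 left out it was 0.22, with 6 of 8 higher.

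**Figure D5:**
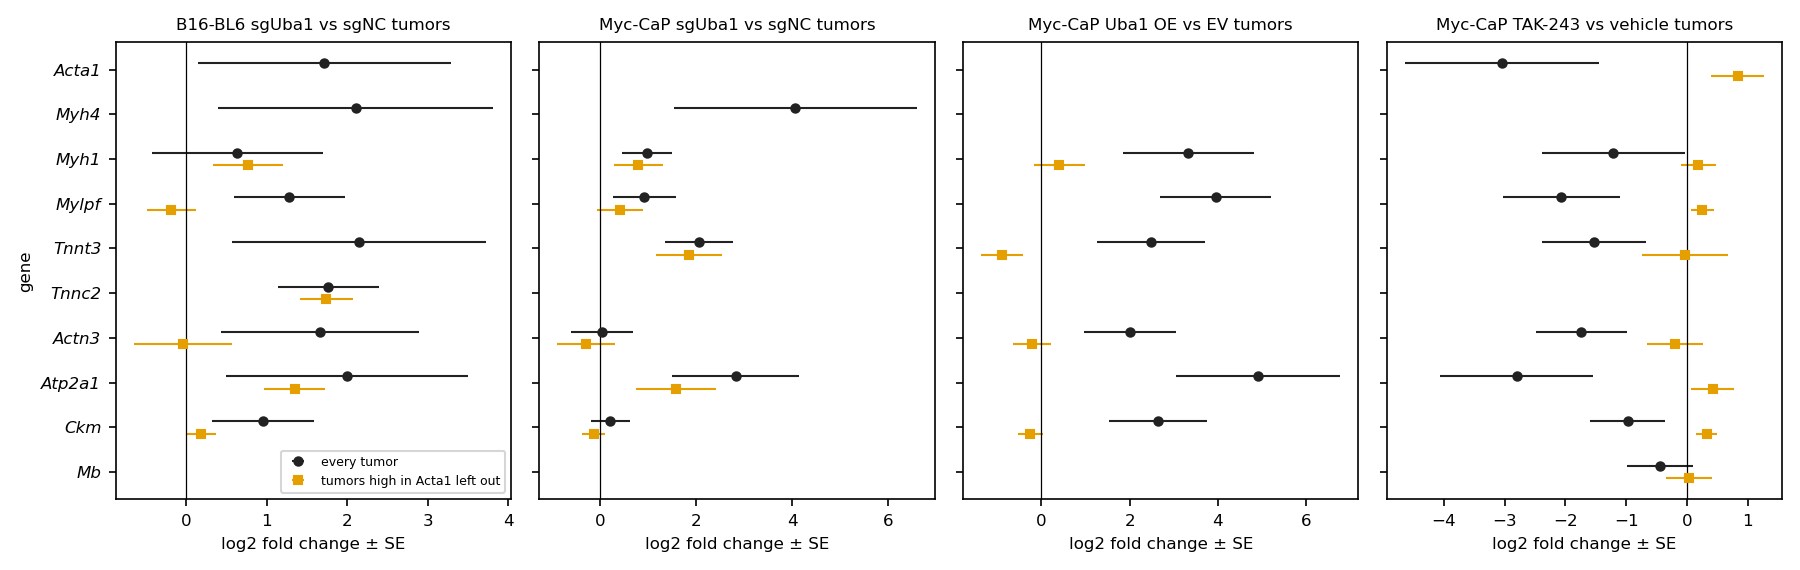
Log2 fold change ± SE of each tested member in the 4 tumor comparisons, with every tumor (circles) and without the tumors high in Acta1 (squares). The members' median moves from 2.99 (6 tested) to -0.23 (4 tested) in Uba1 OE and from -1.63 to 0.22 with TAK-243. The tumors left out were chosen by Acta1, a member, so such a move is in part fixed by the choice.

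List genes outside the members changed in only a few cases by edgeR. In B16-BL6 tumors labelled sgUba1, 2 of 10 tested metabolism genes fell: Pgam2, a muscle phosphoglycerate mutase, by 1.78 on the log2 scale (adjusted p = 0.0284), and Ak1, an adenylate kinase, by 0.72 (adjusted p = 0.00975). In the Myc-CaP tumors labelled sgUba1, 1 gene fell in each of 4 lists: Tpm2 by 2.25 (adjusted p = 0.0309), Tnnt2 by 2.27 (adjusted p = 0.042), Prx of myelin by 1.33 (adjusted p = 0.0386) and Krt15 by 4.80 (adjusted p = 0.0297). Without the 4 of those tumors whose Uba1 was above every sgNC tumor, 1 gene was called among all tested. No list gene was called in the other comparisons. With the muscle level, Pgam2 had r = 0.747 over the tumors, Tpm2 0.35, Ak1 0.242, Krt15 0.0472, Prx 0.0407 and Tnnt2 -0.0042.

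Cultured cells set the background, and it shifted with the drug. In the 8 libraries of the TAK-243 experiment, 4 members stood higher in all 4 libraries with TAK-243 than in all 4 without, of 6 that passed the filter, beside 31.7% of 14551 genes. Ckm was 5.06 to 6.0 CPM with the drug and 1.23 to 2.56 without, Atp2a1 1.14 to 2.71 and 0 to 0.218, Acta1 0.731 to 1.02 and 0.0718 to 0.479, and Tnnt3 0.744 to 1.8 and 0 to 0.282. Actn3 and Mylpf overlapped. Acta1, Tnnt3 and Atp2a1 had at most 6, 4 and 3 counts without the drug and passed the filter only through the libraries given it. For these genes, a higher level with the drug was thus built into the filter, and the 4 of 6 is not read as a result. With 2 libraries a group, this is a description. Myh4 stayed at 0 counts in the cells given TAK-243, and Tnnc2 had at most 8 counts. Measured against the 12 cultured libraries without TAK-243, 6 tumors in place of 5 had all 10 members above the background.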

How the data were processed

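Bulk RNA-seq of 51 mouse libraries was read from tables that the authors deposited, with expected counts and TPM per gene. Per the labels, the submitters' processing notes name kallisto and mm10, and versions and annotation are not given in the sources used here. The labels describe poly-A capture and the paper's methods describe digestion of ribosomal RNA. The fits had been planned for counts, so the expected counts were rounded. Samples were grouped by title alone. Whether tumors share a mouse is not given, so p-values measure only the spread between these samples.

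Each tumor experiment was fitted alone in R 4.3.3 with edgeR 4.0.16 (filterByExpr, TMM, quasi-likelihood test, Benjamini-Hochberg adjustment over all genes, threshold 0.05), with DESeq2 1.42.0 and limma 3.58.1 as alternatives. On simulated counts with 200 genes changed by 2 on the log2 scale, 92.9%, 88.7%, 91.3% and 99% of the changed genes tested were recovered in the B16-BL6, Myc-CaP sgRNA, OE and TAK-243 designs. False calls numbered 11, 6, 7 and 8. The changed genes were drawn at random among all that passed the filter. Recovery of genes high in single tumors, such as the members, was not tested. Levels are CPM with TMM factors over all libraries, and log2 CPM used a prior count of 2. Correlations used log2 CPM centred on experiment means and genes with at least 10 counts in at least 3 tumors. The implied length is count divided by TPM, scaled in each library by genes with 1 transcript of 2 to 4 kilobases.

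The members and the 13 lists were chosen with earlier results of these data known. Named genes were the members, the 4 most abundant genes of each list, list genes past the threshold, the 12 genes closest to the muscle level, and Uba1. Krt5, Krt1, Myh2, Myh7 and Ube2c, outside this rule, were named after their values were seen, and 1 gene within it is not reported here. Replicate numbers gave correlations of deviations from -0.179 to 0.315 between same-numbered tumors, and no comparison had all of them above 0.1, so the numbers were not taken to pair tumors.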

Additional observations from a re-analysis of the deposited data

Results flagged for a closer look

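A sample was flagged where its gap to the nearest other sample of its group was larger than Dixon's 95% critical value allows on the log2 scale, in groups of 4 to 10. Of 55 groups of values looked at (10 members and the muscle level in 5 groups), 14 were flagged, all high. The members move together and the muscle level is their mean, so the 55 are not independent looks. The 14 are therefore not set against a chance rate. They fell in 4 tumors, and no explanation was tested.

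In Myc-CaP sgUba1 replicate 1, Acta1 (15.1 CPM, next 0.433), Ckm (7.53, next 3.33), Myh4 (34.1, next 1.03), Tnnc2 (1.99, next 0) and the muscle level (2.61, next 0.06) stood apart. In TAK-243 replicate 1, Acta1 (8.21 CPM, next 0.702), Myh1 (9.99, next 0.885), Mylpf (2.19, next 1.19), Atp2a1 (2.77, next 0.783) and the muscle level (1.15, next -0.28) did so. In vehicle replicate 6 this held for Ckm (28.4 CPM, next 5.51), Mylpf (26.9, next 2.71) and Mb (2.14, next 0.605), and in Uba1 OE replicate 2 for Myh1 (24.2 CPM, next 1.14). Where 2 tumors of a group were high, as for Acta1 in Uba1 OE, the gap between them hid both from this measure.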

How the results depend on the processing

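The number of members called was 0 in each of the 35 fits that left out 1 tumor and in 45 of 49 other alternatives. Leaving out 1 tumor gave medians of 0.38 to 3.65 in B16-BL6, 0.60 to 1.53 in Myc-CaP sgRNA, 0.91 to 4.25 in OE and -2.08 to -0.14 with TAK-243, and 43 to 320, 10 to 692, 0 to 386 and 1 to 299 genes called. The members that passed the filter changed between these fits. In OE, 9 were tested with an EV tumor left out and 4 without OE replicate 1, beside 6 with every tumor, so the OE range mixes sets of members. In those fits Ckm lay at -0.034 to 1.496, -0.14 to 0.36, 1.11 to 3.01 and -1.15 to 0.16, and Mb with TAK-243 at -0.70 to 0.33. Leaving out the tumors high in Acta1, chosen after the data were seen, gave 743, 229, 16 and 0 genes called and 1 member in B16-BL6. As these tumors were chosen by a member, the moves of the members are in part fixed by that choice. The median then was -0.23 in OE and 0.22 with TAK-243, Ckm -0.14 in Myc-CaP sgRNA and -0.25 in OE, and Acta1, Ckm and Mb 0.84, 0.33 and 0.033 with TAK-243. Without the 4 tumors labelled sgUba1 whose Uba1 was above every sgNC tumor, also chosen afterwards, 1 gene was called. The cause of these differences was not tested beyond the tumors left out.

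By DESeq2, 532 genes were called in B16-BL6, 1862 in Myc-CaP sgRNA, 723 in OE and 558 with TAK-243, with 1 member in Myc-CaP sgRNA and 1 in OE, and Myh4 was -0.25 in Myc-CaP sgRNA. The member called in OE, Mylpf, passed the filter only through OE tumors. limma-voom called 300 genes in Myc-CaP sgRNA and 2 in OE. With no filter on low counts the counts were 204 in B16-BL6, 33 in OE and 45 with TAK-243, and with at least 10 counts in every library 0 with TAK-243. Robust dispersion gave 1 gene in OE, and Bonferroni adjustment gave 24, 3, 1 and 3. limma on log2(TPM + 1) called 254 genes in Myc-CaP sgRNA and 1 in OE, with a pseudocount of 0.1 it called 303 and 1, and with no filter 39 in B16-BL6, 118 in Myc-CaP sgRNA and 5 with TAK-243. All 10 members exceeded 2 times the highest cultured library in 2 tumors. With more than 3 counts in the tumor as the limit, whatever the cells held, all 10 passed in 9 tumors. This set differed from the 9 high in Acta1 by few tumors. Myc-CaP sgUba1 1 and B16-BL6 sgUba1 4 fell short through Mb alone, with 3 counts and 1 count. TAK-243 3 and 4, low in Acta1, came in. The cause of the other differences was not tested. Of the 50 genes closest to the muscle level, 26 were on the lists by Spearman's rho, without centring and without the 2 highest tumors alike, and 45, 45 and 44 of the 50 were shared.

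The replicate numbers are shared numbers only. With the replicate block, 2 of 9 members were called in B16-BL6 (Actn3 and Tnnc2) beside 0.724% of all genes, and 2 genes were called in Myc-CaP sgRNA, 0 in OE and 8 with TAK-243. With TAK-243 the block gave a median of 0.20, Acta1 0.54, Ckm 0.22 and Mb 0.31, from the 5 numbers both groups hold.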
